A study of Danio rerio with 18 samples.

Results

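The sarcomere genes of the zebrafish are described here across 6 groups of larvae. Members were the genes of the deposited table whose symbol begins with the name of a myosin heavy or light chain, a troponin C, I or T, a tropomyosin (tpm1 to tpm4), a myosin binding protein, a myomesin, a myozenin, an alpha-actinin, titin or nebulin. The cardiac genes myh6, myl7, tnnt2a and tnni1b were left out by the same rule. This gave 82 of 32520 genes, with 272 of 59876 transcripts, and 81 distinct symbols, because 2 gene identifiers share the symbol myhz1.1. By role, 66 genes encode proteins of striated muscle, 15 are smooth muscle or non-muscle relatives that share the family names, and tnni3k is a kinase named for its binding to troponin I. The members lie on 24 chromosomes.

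All samples were whole bodies of AB wild type larvae at 120 hours post fertilisation. The exposed larvae received perfluorobutanesulfonic acid (PFBS), a short-chain perfluoroalkyl acid, at 7, 70, 700, 3500 or 7000 µM, and the control larvae received none, with 3 samples in each of the 6 groups. The vehicle, the window of exposure and how many larvae made up a sample were not given in the sources used here. No label states that the samples of a group were separate pools of larvae, so each p-value reflects only how these samples varied, which may be technical variation. In whole-body RNA, fewer muscle cells and less of a transcript per muscle cell cannot be told apart.

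The sarcomere is the contractile unit of striated muscle. Thick filaments of myosin slide along thin filaments of actin, and calcium binding to troponin moves tropomyosin off the myosin sites. Alpha-actinin at the Z-disc anchors the thin filaments, myomesin at the M-band crosslinks the thick ones, and titin and nebulin run along them as giant scaffold proteins. In the zebrafish trunk a thin superficial layer of slow fibres covers a large mass of fast fibres, and each fibre type uses its own paralogs of most of these proteins.

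Total counts were 14937147 to 19267232 reads per library, and samples of a group differed with a common biological coefficient of variation of 12.9%. Replicate 3 at 7000 µM stood apart from its group in muscle and body wall genes. Calls of members at 7000 µM against controls that were lost without it are named as such. For genes outside the naming rule, whether a call held without it is given at most as a count per list. Of the 82 members, 79 passed the filter on low counts, and tnni1a, tnnc1a and tnni3k did not. Levels are CPM, read counts scaled to a library size normalised with edgeR's TMM factors. Fold changes are log2 values ± SE from edgeR's quasi-likelihood fit to all 18 libraries, and a gene was called where the Benjamini-Hochberg adjusted p over 21046 genes was under 0.05.

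In controls the order of members by the deposited TPM values, a unit that takes transcript length into account, was led by fast isoforms. The fast regulatory light chain mylpfa had 7483 ± 553 TPM (SD, n = 3), the fast troponin T tnnt3b 6641 ± 461 TPM, the fast heavy chain myhz1.1 6276 ± 464 TPM, the fast troponin C tnnc2 5098 ± 106 TPM and the fast troponin I tnni2a.4 4559.7 ± 112 TPM. In all, 25 of the 82 members averaged at least 100 TPM in controls and 5 averaged less than 1 TPM. Of reads, which are not scaled for length, myhz1.1 alone held 36.1% of those of all members in controls.

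At 7000 µM most members of striated muscle roles were lower than in controls. Of 79 members tested, 35 fell and 4 rose, where edgeR called 25.0% of all genes tested, 12.3% as lower and 12.7% as higher. The median log2 fold change of the 79 was -0.66, against -0.01 over all genes. By sample, the median log2 level of members less the control mean was -0.38, -0.39 and -1.28 at 7000 µM. It was -0.48, -0.62 and -0.002 at 70 µM and -0.65, -0.41 and -0.13 at 700 µM. By this median, replicates 1 and 2 at 7000 µM lay within the range of the 70 and 700 µM samples. By share of all reads in members they lay below it. They had 4.82 and 4.78%, and the lowest of the 70 and 700 µM samples, replicate 2 at 70 µM, had 5.05%. Every 7000 µM sample was below every control sample for 41 members, a pattern that 22.2% of all genes tested showed, and above every control sample for 6 members, which 20.6% of genes showed. Without replicate 3 at 7000 µM, 26 members fell and 3 rose, with 11.1% of all genes called and 4.78% lower. These 29 genes were all among the 39 called with it. Without control replicate 1 edgeR called 28 members, and without control replicate 2 it called 30. The share of all genes called in these fits is not given here, so whether members lost more calls than other genes cannot be told. A fit of the 7000 µM and control libraries alone called 31 members, also without that share given. Among named genes it did not call myhz1.1 (adjusted p = 0.0659), tnnc2 (0.0669), tnni2a.4 (0.0769), tnnt3b (0.0728), tnnc1b (0.0619), tnni1d (0.0545) and tpm3 (0.0517).

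Members took 4.82, 4.78 and 1.91% of all reads at 7000 µM, against 8.89, 8.40 and 7.89% in controls. In deposited TPM the share was 2.68, 2.67 and 1.09% at 7000 µM, against 4.50, 4.53 and 4.21% in controls. All 3 samples at 7000 µM lay below the controls on both scales. The 25 fast isoform genes alone took 3.33 ± 1.52% of reads at 7000 µM and 7.36 ± 0.38% in controls, and the 17 slow isoform genes took 0.0787 ± 0.0240% at 7000 µM and 0.117 ± 0.0165% in controls (SD, n = 3 each). The fast share did not overlap between these groups. For the slow share all 3 samples at 7000 µM were also lower, although the lowest control, at 0.0983%, lay close to the highest 7000 µM sample, at 0.0946%. The slow share in the 700 µM samples was 0.0700, 0.0870 and 0.102%, which overlapped with both the 7000 µM samples and the controls.

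**Figure D1:**
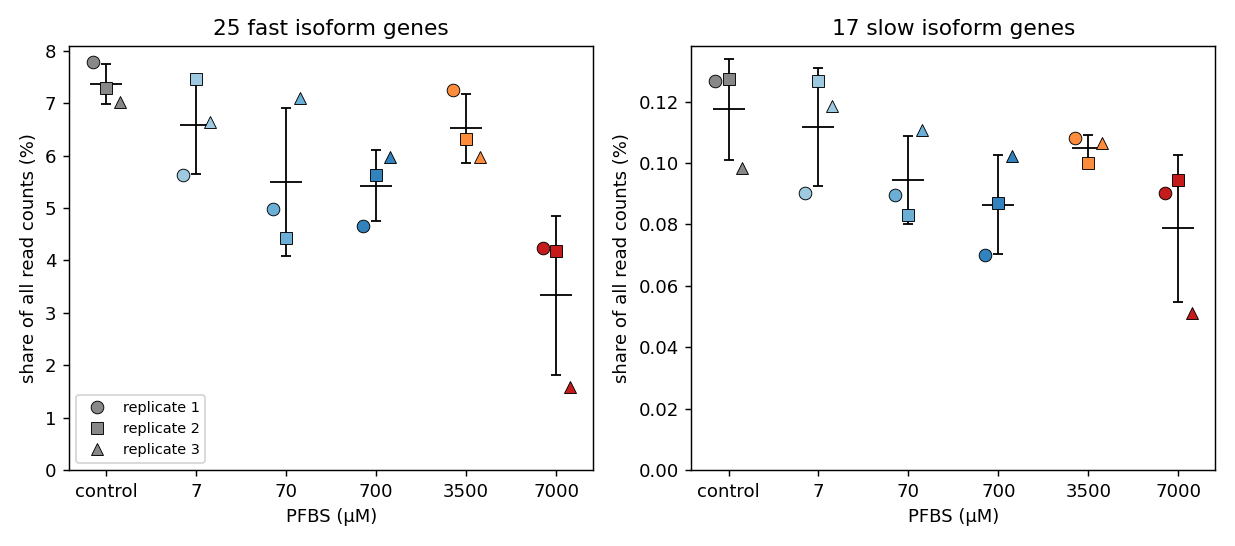
Share of all read counts (%) taken by 25 fast isoform genes (left) and 17 slow isoform genes (right) in each of 18 libraries, by PFBS concentration; each marker is a library, and the horizontal tick and bar are the mean ± SD of 3. Fast isoforms averaged 3.33% at 7000 µM and 7.36% in controls, with replicate 3 at 7000 µM the lowest of all libraries in both panels.

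Myosin heavy chains are the motor proteins of the thick filament. Of 12 tested, 5 fell and none rose at 7000 µM, with a median of -0.64. All 5 are fast genes in a tandem cluster on chromosome 5, which runs from myhz2 at position 32206378 to the end of myhz1.1 at 32309129 in the coordinates of the deposited table (build not given in the sources used here). These genes are closely related copies, so the division of reads among them is uncertain. The fast heavy chain myhz1.1 (ENSDARG00000067990) had 17015, 16970.4 and 5891 CPM at 7000 µM, against 32780.1, 28149.7 and 29906 CPM in controls, which is -1.19 ± 0.31 on the log2 scale (adjusted p = 0.0121). Exposed and control samples were far apart, and replicate 3 at 7000 µM was the lowest by a wide margin.

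Its neighbours fell as well. myhz2 had 2102, 2083 and 462 CPM at 7000 µM, against 6603, 5322 and 4255 CPM in controls (-1.80 ± 0.43, adjusted p = 0.00671). myhc4, a lower expressed member of the cluster, had 8.79, 15.7 and 3.14 CPM at 7000 µM, against 44.5, 43.1 and 28.5 CPM in controls, and its log2 fold change of -2.08 was the lowest of any member. myhz1.2 fell by 1.45 and myhz1.3 fell by 1.67 on the log2 scale. The sixth gene of the cluster, myha, had a log2 fold change of -0.71 that did not pass the test (adjusted p = 0.179). The second gene with the symbol myhz1.1, on chromosome 22, was at 24.7, 31.3 and 18.8 CPM at 7000 µM, against 34.4, 27.7 and 16.1 CPM in controls. These overlap.

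Heavy chains of the slow and cardiac type were not called. myh7, the slow and ventricular heavy chain in mammals, had 44.3, 46.1 and 36.2 CPM at 7000 µM, against 60.2, 58.1 and 52.4 CPM in controls (-0.43 ± 0.19, adjusted p = 0.0951). The groups did not overlap. The other 3 genes of that family, myh7ba, myh7bb and myh7l, had log2 fold changes of -0.56, -0.37 and 0.17.

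Light chains bind the neck of the myosin head. Of 8 tested, 3 fell and none rose, with a median of -0.80. The fast essential light chain myl1 had 481, 431 and 142 CPM at 7000 µM, against 790.3, 818 and 737 CPM in controls (-1.15 ± 0.31, adjusted p = 0.0125). myl10 (-0.85) and myl2a (-0.77) also fell, and both lost the call without replicate 3 at 7000 µM, with adjusted p of 0.12 and 0.20. The abundant regulatory light chain mylpfa had 6759, 5715 and 2999 CPM at 7000 µM, against 7192, 7770.5 and 8581 CPM in controls. All 3 were below the controls, yet -0.61 ± 0.23 did not pass the test (adjusted p = 0.0648), nor did its copy mylpfb at -0.66 (0.0981). The abundant light chain gene mylz3 is not matched by the naming rule. It averaged 4077 ± 1722 CPM at 7000 µM and 6976 ± 206 CPM in controls (SD, n = 3 each), without overlap. It was called as lower (-0.77 ± 0.24, adjusted p = 0.0259), and replicate 3 at 7000 µM was its lowest sample, with 2695 TPM against 6327 and 5994 TPM in replicates 1 and 2. Whether the call of mylz3 held without replicate 3 at 7000 µM is not given here.

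Troponins make up the calcium switch of the thin filament. Of 20 tested, 8 fell and 2 rose, with a median of -0.70. The fast subunits that are most abundant in controls were among those that fell. Troponin C tnnc2, the calcium sensor, had 2615, 2572 and 965 CPM at 7000 µM, against 3899, 3966 and 3988 CPM in controls (-0.95 ± 0.26, adjusted p = 0.0139). Troponin T tnnt3b, which ties the complex to tropomyosin, had 2699.6, 2601 and 975 CPM at 7000 µM, against 3863, 4136 and 3953 CPM in controls (-0.93 ± 0.27, adjusted p = 0.0207). Control values of both genes differed little among themselves, and replicates 1 and 2 at 7000 µM were close to each other, with replicate 3 well below.

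Troponin I tnni2a.4, the inhibitory subunit, had 1454, 1273 and 459 CPM at 7000 µM, against 2082, 1943 and 2133 CPM in controls (-0.95 ± 0.28, adjusted p = 0.0195). tnnt3a (-1.09), tnni2b.2 (-0.75), tnnt2e (-1.03), the slow troponin C tnnc1b (-1.09) and the slow troponin I tnni1d (-0.71) also fell. Without replicate 3 at 7000 µM, the calls of tnnt3b, tnni2b.2, tnnt2e, tnnc1b and tnni1d were lost, with adjusted p of 0.054, 0.15, 0.091, 0.094 and 0.21. Those of tnnt3b, tnnc1b and tnni1d were also lost without control replicate 1 (0.055, 0.10 and 0.16) or control replicate 2 (0.060, 0.074 and 0.087), that of tnni1d without replicate 1 at 7000 µM (0.054), and that of tnni2a.4 without control replicate 1 (0.059).

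A neighbouring troponin I copy went the other way. tnni2a.3 (ENSDARG00000013752, chromosome 25, 31264155 to 31275944) had 19.5, 17.8 and 19.1 CPM at 7000 µM, against 11.5, 12.11 and 10.1 CPM in controls (0.74 ± 0.20, adjusted p = 0.0128). All 3 samples at 7000 µM were higher, replicate 3 included. tnni4b.1 rose by a log2 of 2.37 ± 0.44 but averaged under 1 CPM in both groups. The slow troponin T tnnt1 had 10.5, 9.39 and 9.70 CPM at 7000 µM, against 9.22, 9.13 and 7.60 CPM in controls (0.19, adjusted p = 0.239).

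Tropomyosin winds along the thin filament and covers its myosin sites. Of the 3 members tested, tpm3, the slow-fibre form, fell, with 165, 152 and 99.7 CPM at 7000 µM, against 233, 226 and 169 CPM in controls (-0.59 ± 0.18, adjusted p = 0.0245). Its adjusted p was 0.13 without replicate 3 at 7000 µM, 0.10 without control replicate 1 and 0.086 without control replicate 2. tpm1 had a log2 fold change of 0.09 and tpm2 of -0.26, and neither was called. The main fast tropomyosin, tpma, is not matched by the naming rule. It had 5349, 5536 and 1744 CPM at 7000 µM, against 8750.5, 8492 and 8757 CPM in controls (-1.04 ± 0.30, adjusted p = 0.019). Whether the call of tpma held without replicate 3 at 7000 µM is not given here.

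Myosin binding proteins sit on the thick filament and modulate the heads. Of 6 tested, mybphb and mybpc2b fell and none rose, with a median of -0.62. mybpc2b, the fast form of myosin binding protein C, had 13.4, 11.5 and 4.37 CPM at 7000 µM, against 39.5, 33.6 and 26.3 CPM in controls (-1.77 ± 0.34, adjusted p = 0.00189). The slow form mybpc1 had 26.8, 29.3 and 22.3 CPM at 7000 µM, against 33.6, 30.0 and 21.6 CPM in controls (-0.12 ± 0.20, adjusted p = 0.678), and these overlap. mybphb fell by 1.48 on the log2 scale. mybpc3, the cardiac form, had a log2 fold change of -0.66 that was not called (adjusted p = 0.0897).

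All 3 M-band genes fell, and their median of -1.41 was the lowest of the 9 role groups. myom1b (ENSDARG00000104836) had 25.5, 28.7 and 7.90 CPM at 7000 µM, against 89.4, 89.6 and 50.6 CPM in controls (-1.89 ± 0.43, adjusted p = 0.00528). myom1a and myom2a each fell by 1.41 on the log2 scale. All 3 calls held without replicate 3 at 7000 µM, where the log2 fold changes were -1.50, -1.03 and -1.09.

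Of 8 Z-disc members, 6 fell and 1 rose, with a median of -1.26. Myozenins link alpha-actinin to calcineurin. myoz3a had 5.06, 5.76 and 2.58 CPM at 7000 µM, against 16.6, 11.9 and 14.1 CPM in controls (-1.68 ± 0.31, adjusted p = 0.00131), and myoz1a (-1.27), myoz1b (-1.1) and myoz2a (-1.24) fell too. Only myoz2b, at -0.47, was not called in this role group. The alpha-actinins divided. The fast form actn3a had 942, 872 and 352 CPM at 7000 µM, against 2020.3, 2009.6 and 1709 CPM in controls (-1.41 ± 0.28, adjusted p = 0.00245), and actn3b fell by 1.38 on the log2 scale.

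In contrast, actn2b (ENSDARG00000071090, chromosome 17, 20122019 to 20143946), whose mammalian relative serves heart and slow fibres as well as fast ones, had 36.0, 33.0 and 48.0 CPM at 7000 µM, against 20.2, 25.1 and 22.9 CPM in controls. It rose by 0.78 ± 0.13 on the log2 scale (adjusted p = 0.000775). Replicate 3 was the highest sample for this gene, and the call held without it (0.61, adjusted p = 0.0048). Across concentrations, actn2b averaged 22.7 ± 2.43 CPM in controls and 20.6 ± 2.38 CPM in larvae given 7 µM, while the 70 µM group had 22.6 ± 1.32 CPM, the 700 µM group 26.2 ± 2.1 CPM, the 3500 µM group 27.3 ± 3.00 CPM and the 7000 µM group 39.0 ± 7.91 CPM (SD, n = 3 each). From control to 3500 µM, neighbouring means differed by less than their larger SD, except those of 70 and 700 µM.

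Titin and nebulin set the length of the sarcomere and of its thin filaments. Both titin genes and neb fell, and nebl, which in mammals encodes nebulette of the cardiac Z-disc, was not called (0.24). neb (ENSDARG00000032630) had 486, 519.8 and 179 CPM at 7000 µM, against 1438, 1415 and 1072 CPM in controls (-1.73 ± 0.33, adjusted p = 0.00174). ttn.1 had 1271, 1200.3 and 664 CPM at 7000 µM, against 2582, 2549 and 1982 CPM in controls (-1.18), and ttn.2 fell by 1.21 on the log2 scale. All 3 calls held without replicate 3 at 7000 µM, with log2 fold changes of -1.38, -0.94 and -0.93.

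The smooth muscle and non-muscle relatives were counted apart. Of 15 tested, 4 fell and 1 rose at 7000 µM, with a median of -0.06. Of all genes tested, 25.0% were called, 12.3% as lower and 12.7% as higher, so the count of these relatives is not far from that share. Together they took 0.0826 ± 0.00265% of reads at 7000 µM and 0.0897 ± 0.00343% in controls (SD, n = 3 each). The non-muscle heavy chains myh9a and myh9b, which drive cell contractility, had log2 fold changes of -0.69 ± 0.19 (adjusted p = 0.0136) and -0.70 ± 0.17 (0.00714). The non-muscle alpha-actinins actn1 (-0.65) and actn4 (-0.35) fell with them, and the light chain myl6 rose by 0.31. Without replicate 3 at 7000 µM, myh9a (adjusted p = 0.078) and myl6 (0.12) were no longer called, nor were they without control replicate 1 (0.080 and 0.13), and myl6 also lost its call without control replicate 2 (0.12) or replicate 1 at 7000 µM (0.056). Another non-muscle heavy chain, myh10, had 178, 165 and 177 CPM at 7000 µM, against 171, 162 and 174 CPM in controls (0.04).

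**Figure D2:**
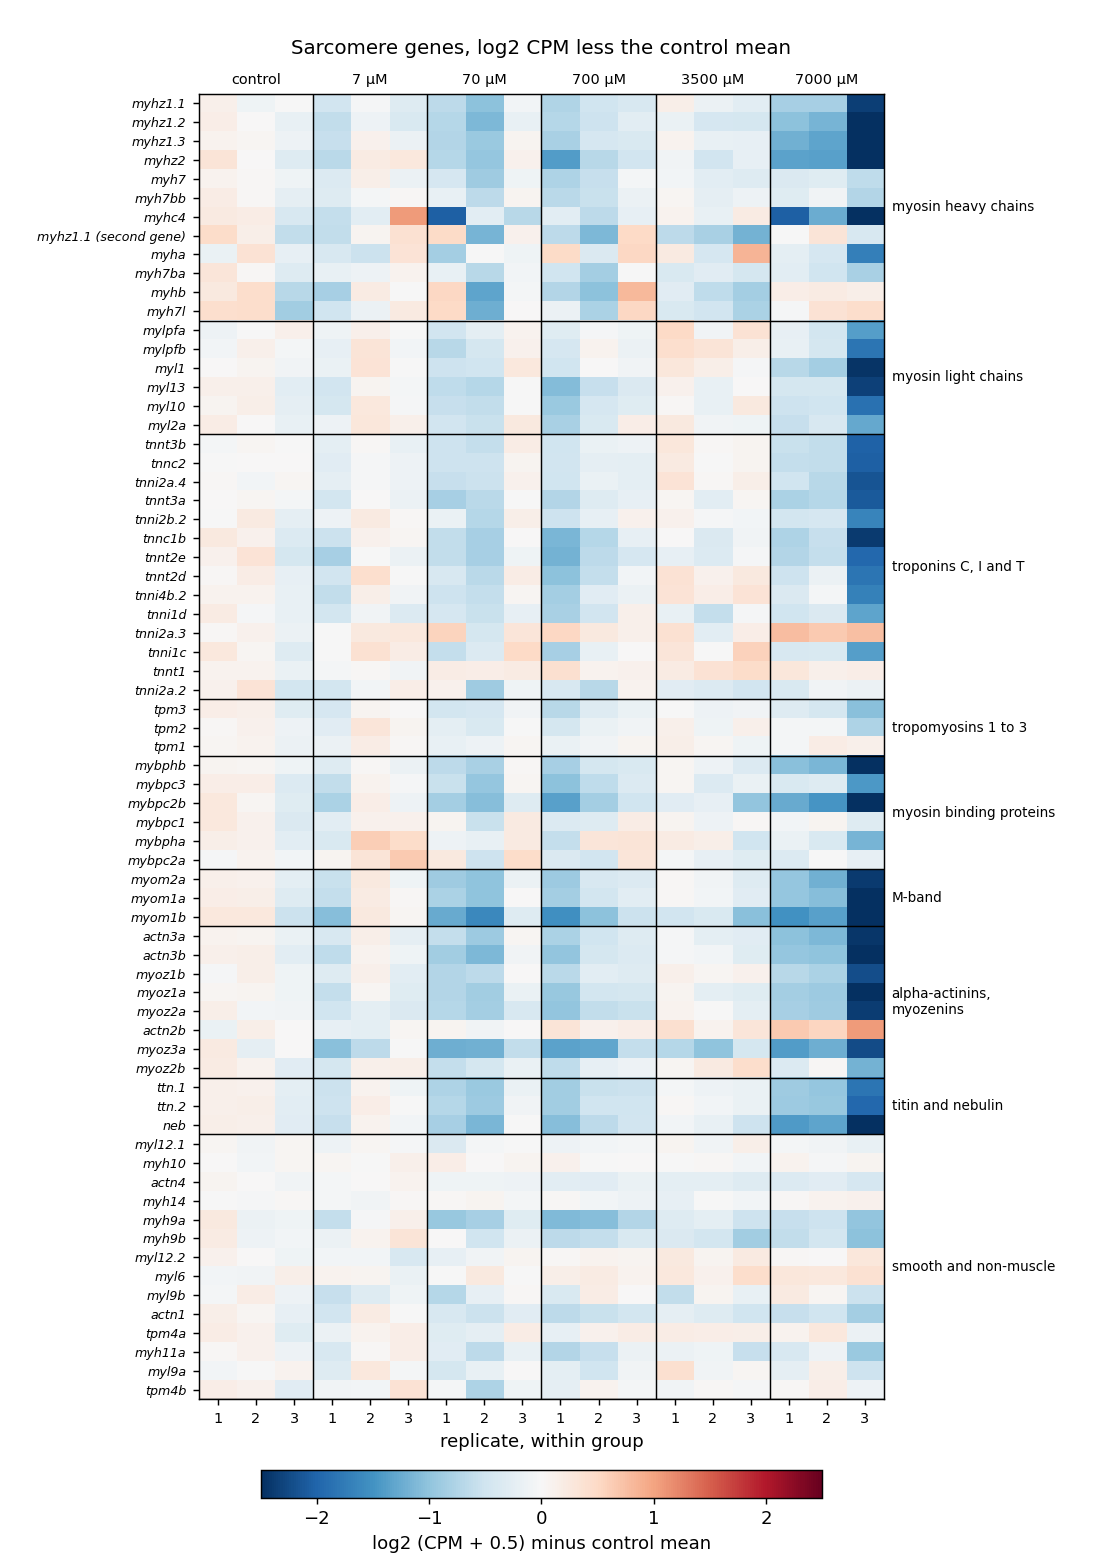
Level of 69 sarcomere genes with at least 5 CPM in controls (rows, by role) in the 18 libraries (columns, 3 replicates per group), as log2 (CPM + 0.5) minus the mean of the 3 controls; blue is lower and red higher, and the scale ends at 2.5. Most rows of striated muscle roles are blue at 7000 µM, deepest in replicate 3, while actn2b and tnni2a.3 are red and most smooth and non-muscle rows are pale.

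Fast and slow isoforms were then set side by side. Of 25 fast isoform genes tested at 7000 µM, 16 fell and 1 rose, with a median of -0.95. Of 16 slow isoform genes tested, 5 fell and 1, actn2b, rose, with a median of -0.52. Over all genes tested, 12.3% were called as lower and 12.7% as higher. The slow list includes the heavy chains of slow and cardiac type, myh7, myh7l, myh7ba and myh7bb, so it is not specific to slow skeletal fibres. The slow myosin genes smyhc1, smyhc2 and smyhc3, which the naming rule does not match, had log2 fold changes of -0.85, -0.72 and -0.52 with no call. Of these, smyhc1 and smyhc3 overlapped with controls. At 700 µM the log2 fold changes of smyhc1, smyhc2 and smyhc3 were -0.97, -0.81 and -0.72, without overlap with controls and also with no call. Without replicate 3 at 7000 µM, 14 fast genes fell against 1 slow gene, myoz2a, with medians of -0.75 and -0.36. Over all genes tested in that fit, 4.78% were called as lower, and the slow count is near that share. No test of the difference between the lists was made.

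Slow isoforms had 2.13, 2.26 and 3.23 reads per 100 reads of fast isoforms at 7000 µM, against 1.63, 1.75 and 1.40 in controls. The ratio was higher in all 3 samples at 7000 µM than in each of the other 15 libraries, which lay between 1.40 and 1.88. By TPM the ratio was 3.50, 3.81 and 4.02 at 7000 µM, against 3.43, 3.47 and 2.67 in controls, so the groups did not overlap but the nearest values were close.

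Paralog pairs gave the comparison within single proteins, as log2 ratios of fast over slow with 0.5 CPM added to each. Of 8 pairs, the ratio was lower in all 3 samples at 7000 µM than in all controls for 5. With 3 samples against 3, the smallest p an exact two-sided permutation test can give is 0.1, which these 5 pairs reached, and it was 0.16 after adjustment over the 8 pairs. The largest difference was in alpha-actinin, where actn3b over actn2b was 3.02, 3.11 and 0.88 at 7000 µM, against 4.94, 4.65 and 4.36 in controls, a difference of -2.31. The slow side of this pair is not specific to slow fibres, as the mammalian relative of actn2b serves fast ones too. The rise of actn2b itself (0.78) is part of this difference. Myosin binding protein C followed: mybpc2b over mybpc1 was -0.97, -1.31 and -2.23 at 7000 µM, against 0.23, 0.16 and 0.28 in controls (-1.73).

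Troponin T, as tnnt3b over tnnt1, was 7.94, 8.04 and 6.58 at 7000 µM, against 8.63, 8.75 and 8.93 in controls (-1.25). For the heavy chains, myhz2 over smyhc1 was 2.60, 2.41 and 2.02 at 7000 µM, against 3.42, 3.33 and 3.44 in controls (-1.05). The pair of tnni2a.4 and tnni1a differed by -1.23, but tnni1a was under 1 CPM in every library. The other pairs overlapped between groups: tnni2a.4 over tnni1d differed by -0.39 (exact p = 0.3), tnnc2 over tnnc1b by 0.17 (0.4) and myoz1b over myoz2a by 0.13 (0.4). With 3 samples a group, these values do not show that the paralogs moved alike.

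**Figure D3:**
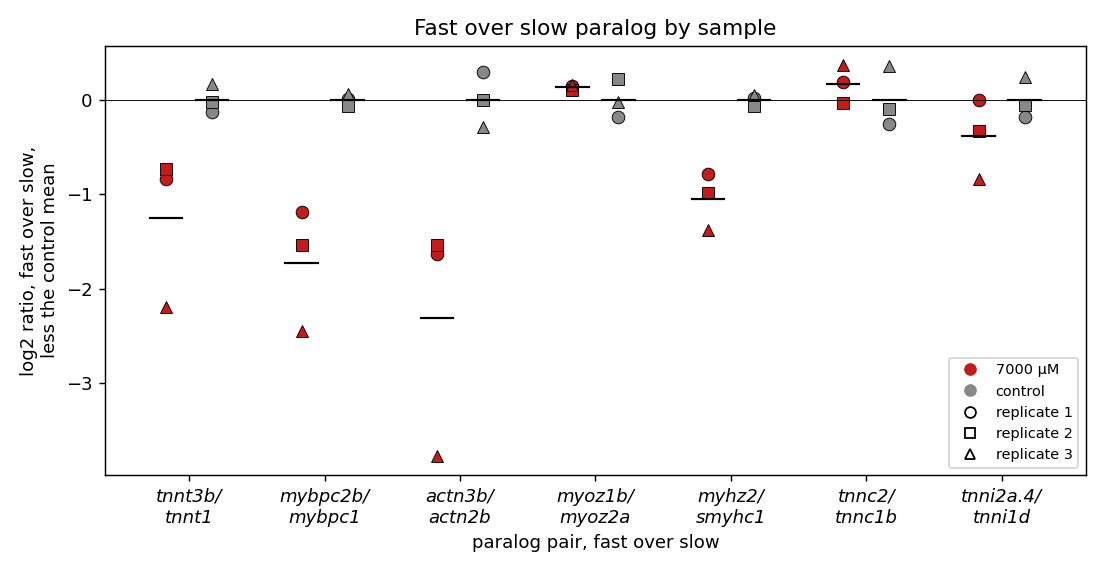
Log2 ratio of fast over slow paralog, less the control mean, in the 3 samples at 7000 µM (red) and the 3 controls (grey), for 7 pairs; bars are means, and the pair with tnni1a, under 1 CPM, is not drawn. The ratio was lower at 7000 µM without overlap for tnnt3b/tnnt1, mybpc2b/mybpc1, actn3b/actn2b and myhz2/smyhc1, and overlapped for the other 3.

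Replicate 3 at 7000 µM was lower than the mean of its 2 companions for 67 of 79 members, with a median log2 difference of -0.90, against -0.01 over all genes tested. The median was -1.43 for fast isoforms, -0.70 for slow isoforms and -0.23 for smooth and non-muscle relatives. In the same library the 6 body wall and skin genes had a median difference of -1.68. Leaving the library out moved the median log2 fold change of members to -0.40, and 10 of the 39 calls were lost.

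**Figure D4:**
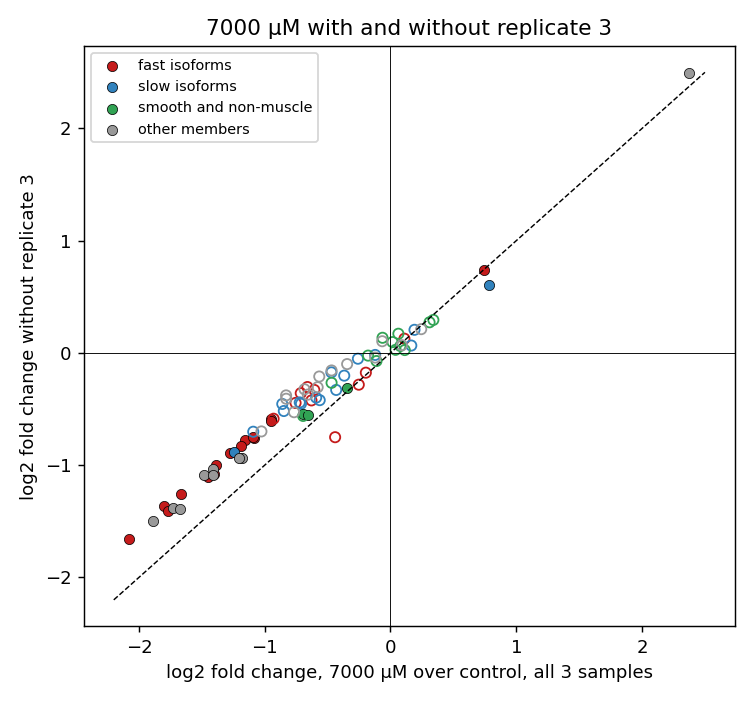
Log2 fold change at 7000 µM over control with all 3 exposed samples (horizontal) and without replicate 3 (vertical) for the 79 sarcomere genes tested; filled markers were called without replicate 3, open ones were not, and the dashed line marks equal values. Nearly all genes that were lower lie above the line, that is closer to 0 without replicate 3, actn2b and tnni2a.3 stay higher in both fits, and 29 genes were called in both.

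At the lower concentrations few members passed the test. At 7 µM edgeR called none of 79, and 0.0333% of all genes. None of the 79 had an unadjusted p under 0.05 in edgeR, which 5.02% of all genes had, and DESeq2 called 0 members. At 70 µM edgeR called none (0.280% of all genes), 11 had an unadjusted p under 0.05, as did 13.7% of all genes, and DESeq2 called myh9a and myoz3a as lower. The share of all genes that DESeq2 called is not given here, so its calls of members cannot be set against it. The median log2 fold change of members was -0.11 at 7 µM and -0.30 at 70 µM. By sample, the median log2 level of members less the control mean was -0.39, 0.08 and -0.01 at 7 µM. In the 70 µM samples it was -0.48, -0.62 and -0.002, so the samples of each group were not alike.

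At 700 µM, actn1, myh9a and myoz3a fell and none rose, where 3.20% of all genes tested were called, 1.27% as higher and 1.93% as lower. myoz3a had 5.28, 5.47 and 9.21 CPM at 700 µM, against 16.6, 11.9 and 14.1 CPM in controls (-1.1 ± 0.29, adjusted p = 0.0482). myh9a had 37.5, 38.4 and 48.6 CPM at 700 µM, against 96.4, 73.3 and 75.1 CPM in controls (-0.98 ± 0.19, adjusted p = 0.0148). All 3 calls at 700 µM were lost without replicate 1 or 2 at 700 µM or without control replicate 1, and those of actn1 and myoz3a without control replicate 2 as well. That of actn1 was also lost without replicate 3 at 700 µM and that of myoz3a without control replicate 3. Without replicate 3 at 7000 µM, which enters the shared estimate of spread, 9 members were called at 700 µM, with the share of all genes not given. A fit of the 700 µM and control libraries alone called 25, all as lower, with 9.40% of the genes it tested called. The median of all members was -0.36, and 19 had an unadjusted p under 0.05, as did 21.0% of all genes. For 29 members all samples at 700 µM were below all controls, which 14.3% of genes tested showed, and 13 of these were fast isoforms. neb had 618, 819 and 933 CPM at 700 µM, against 1438, 1415 and 1072 CPM in controls, and did not pass the test (-0.73 ± 0.32, adjusted p = 0.203).

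At 3500 µM, where 9.47% of all genes tested were called, 5.14% as higher and 4.33% as lower, 3 members were called. The non-muscle genes actn4 (-0.27 ± 0.07, adjusted p = 0.0252) and myh9b (-0.57 ± 0.17, 0.0418) fell, and tnni4b.1 rose by 1.56 at under 1 CPM. All 3 calls were lost without replicate 1 or 3 at 3500 µM or without control replicate 1 or 2, those of myh9b and tnni4b.1 also without control replicate 3, and that of tnni4b.1 without replicate 2 at 3500 µM. The call of actn4 was also lost in a fit of the 3500 µM and control libraries alone, and that of tnni4b.1 with other scaling or no filter on low counts. The call of tnni4b.1 was kept in 0 of its 11 alternative settings, which include leaving out replicate 3 at 7000 µM. For 7 members all samples at 3500 µM were below all controls, which 13.5% of genes tested showed, and 5 of these were smooth or non-muscle relatives. myoz3a had 8.39, 6.81 and 10.3 CPM at 3500 µM, against 16.6, 11.9 and 14.1 CPM in controls, and was not called (-0.74 ± 0.29, adjusted p = 0.109). No fast isoform had an unadjusted p under 0.05, and the median of the 79 members was -0.09. myhz1.1 had 33238, 27433 and 25169 CPM at 3500 µM, against 32780.1, 28149.7 and 29906 CPM in controls, and tnnc2 had 4645, 3911 and 4129 CPM at 3500 µM, against 3899, 3966 and 3988 CPM in controls. By mean share of reads in members, the order of the groups was not the order of concentrations. The samples at 700 µM (5.26, 6.37 and 6.77%) and at 3500 µM (8.17, 7.22 and 6.77%) overlapped narrowly. No test between these groups was made. The share of reads in members averaged 8.39 ± 0.50% in controls and 7.54 ± 1.1% in larvae given 7 µM. It was 6.25 ± 1.58% in the 70 µM group, 6.13 ± 0.78% in the 700 µM group, 7.38 ± 0.71% in the 3500 µM group and 3.84 ± 1.67% in the 7000 µM group (SD, n = 3 each).

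Between the 2 highest concentrations, 23 members fell and 2 rose at 7000 µM relative to 3500 µM, where 6.28% of all genes tested were called, 2.44% as higher and 3.84% as lower. The lower members held 16 fast isoforms and 1 slow isoform, myoz2a. neb had 486, 519.8 and 179 CPM at 7000 µM, against 1238, 1141 and 909 CPM at 3500 µM (-1.47 ± 0.33, adjusted p = 0.015). The groups were well apart in myhc4 (-2.09), myhz1.3 (-1.57), myhz2 (-1.52), mybphb (-1.35) and myl1 (-1.30), and mylpfa fell here (-0.88, adjusted p = 0.035). The call of mylpfa was lost without replicate 1 or 3 at 3500 µM, and that of myhz2 without any 1 of the 3 samples at 3500 µM. The risers were actn2b (0.51) and myh11b (1.09, at about 1 CPM). Without replicate 3 at 7000 µM, 8 members fell and none rose (1.35% of all genes called, 0.924% as lower), and the calls of myhc4, myhz2, mylpfa and actn2b were among those lost. A fit of the 7000 and 3500 µM libraries alone called 1 member, myhc4 (adjusted p = 0.0457), with 1.03% of the genes it tested called. Without replicate 1 at 3500 µM edgeR called none, and without replicate 3 at 3500 µM it called 16, with the share of all genes not given for these fits.

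Muscle genes outside the naming rule were counted from lists, whose chaperones and regulators are not all specific to muscle. Of all genes tested at 7000 µM, 12.3% were called as lower and 12.7% as higher. Of 5 muscle actins tested at 7000 µM, 4 fell: actc1b had 15891, 15746 and 5073 CPM at 7000 µM, against 25936, 26023 and 26354 CPM in controls (-1.09 ± 0.30, adjusted p = 0.015). Of 19 other genes of the Z-disc, thin filament end and cytoskeleton, 11 fell, from obscnb at -2.02 to capzb at -0.90. Of 15 myosin chaperones and muscle ubiquitin ligases, smyd1a (-0.99), smyd1b (-0.88), klhl41b (-1.20) and trim55a (-1.04) fell. Of these, trim55a overlapped with controls. The chaperone gene hsp90aa1.2 rose, with 231, 201 and 224 CPM at 7000 µM, against 111, 106 and 115 CPM in controls (0.98 ± 0.09, adjusted p = 2.7e-06). The chaperone genes hsp90aa1.1 (-0.21, adjusted p = 0.63) and unc45b (-0.43, 0.33) of the same list did not rise and were not called. Of 16 myogenic regulators, myf6 (-1.52), pax7a (-0.62) and sox6 (-0.25) fell and mstnb (0.51) and mef2cb (0.23) rose. The level of myf6 was low, with means of 0.71 CPM at 7000 µM and 2.02 CPM in controls. With replicate 3 at 7000 µM left out, 2 of 5 muscle actins, 8 of the 19 other Z-disc and thin filament genes, 2 of the 15 chaperones and ligases and none of the 16 regulators fell. Which actins, Z-disc genes, chaperones and ligases kept the call is not given here. In that fit 4.78% of all genes tested were called as lower.

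At 3500 µM some of these genes were higher. Of all genes tested there, 5.14% were called as higher and 4.33% as lower. tcap, the titin cap, had 46.6, 59.8 and 52.4 CPM at 3500 µM, against 17.9, 18.3 and 17.9 CPM in controls (1.55, adjusted p = 0.0033). The ubiquitin ligase genes trim63a (0.93) and fbxo32 (1.35), both known for muscle protein breakdown, rose too. The regulator gene mef2aa fell at 3500 µM (-0.55, adjusted p = 0.0426). hsp90aa1.2 had log2 fold changes of 0.12, 0.44, 0.57 and 0.49 at 7, 70, 700 and 3500 µM, called from 70 µM upwards. trim63a had 0.60, 0.67 and 0.62 at 7, 70 and 700 µM, with no overlap with controls but no call (adjusted p = 0.93, 0.29 and 0.19). At 7000 µM tcap, trim63a and fbxo32 had log2 fold changes of 0.57, 0.03 and 0.45 and were not called.

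Genes of the body wall moved alongside the sarcomere genes. All 6 of a list of keratins and type I collagens fell at 7000 µM, with a median of -1.40: krt4 had 1175, 1200.5 and 420.0 CPM at 7000 µM, against 3393, 2686 and 2258 CPM in controls. Together they took 0.513, 0.562 and 0.182% of reads at 7000 µM, against 1.24, 1.05 and 0.90% in controls, and none of the 6 was near 0. With replicate 3 at 7000 µM left out, 3 of the 6 fell, with a median of -0.996. Their share was 0.515, 0.490 and 0.899% in the 70 µM samples, 0.360, 0.483 and 0.742% in the 700 µM samples and 0.792, 0.802 and 0.758% in the 3500 µM samples. The libraries with the lower sarcomere shares at 70 and 700 µM were the ones with the lower body wall shares. Of 4 globin genes, 2 fell at 7000 µM, with a median of -0.73. Of all genes tested, 12.3% were called as lower at 7000 µM, and 4.78% without replicate 3 of that group. The part of these tissues in the sarcomere result was not tested.

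**Figure D5:**
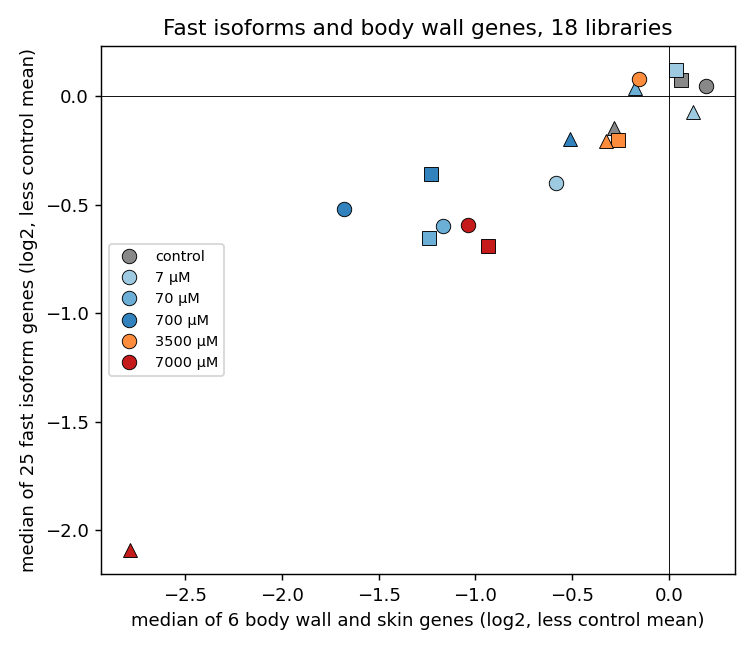
Median over 25 fast isoform genes (vertical) against the median over 6 body wall and skin genes (horizontal), each as log2 CPM less the control mean, for the 18 libraries; circles, squares and triangles are replicates 1, 2 and 3. Libraries low on one axis tend to be low on the other, with replicate 3 at 7000 µM at the lower left, but the order is not the same on both. Replicate 1 at 700 µM is at -1.68 for body wall and -0.52 for fast isoforms. Replicates 1 and 2 at 7000 µM are at -1.04 and -0.93 for body wall and -0.60 and -0.69 for fast isoforms. The points share the scaling of their library.

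The cardiac genes left out by the rule were low in all groups. myl7, a cardiac light chain, had 3.14, 6.0 and 3.14 CPM at 7000 µM, against 3.32, 3.18 and 0.530 CPM in controls (0.80, adjusted p = 0.36), and myh6, the atrial heavy chain, was under 0.5 CPM in each of these 6 libraries. tnnt2a (0.08) and tnni1b (-0.32) were not called.

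At the level of single transcripts, edgeR called 5 of 187 member transcripts as higher and 52 as lower at 7000 µM, in 33 genes, where 14.2% of all transcripts tested were called. The division of reads between transcripts of a gene is an estimate, and the transcripts named here were chosen after their values were seen. One of the lower transcripts was tnnt3b-202, annotated as protein coding, with 0 reads in all 3 samples at 7000 µM and 286, 112 and 105 CPM in controls. Against a floor of 3 counts over the group, it was at least 2878-fold lower (adjusted p = 0.007), a bound for counting error only. It was also at 0 in replicate 1 at 700 µM, and at 3500 µM it had 213, 201 and 165 CPM. The leading transcripts of the gene, tnnt3b-203 and tnnt3b-206, held 41.1 ± 2.39% and 43.6 ± 2.44% of its reads at 7000 µM and 37.7 ± 1.44% and 35.3 ± 6.03% in controls (SD, n = 3 each).

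In the heavy chain myhz1.1, the transcript myhz1.1-201 held 6.23, 8.01 and 5.23% of the gene's reads at 7000 µM, against 33.2, 35.9 and 20.0% in controls, and fell by 3.31 ± 0.64 on the log2 scale (adjusted p = 0.005). myhz1.1-202 carried the rest and was not called (-0.79, adjusted p = 0.087). The share of myhz1.1-201 also varied in other groups: it was 9.53% in replicate 2 at 70 µM, 9.70% in replicate 1 at 700 µM and 8.42% in replicate 3 at 3500 µM.

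For the M-band gene myom2a, the transcript myom2a-208 held 21.8, 24.7 and 87.3% of the gene's reads at 7000 µM, against 0.883, 0.630 and 1.52% in controls. It rose by 3.70 ± 0.87 on the log2 scale (adjusted p = 0.014) while myom2a-204 fell by 1.99. Its share was 9.76, 16.4 and 2.37% in the 70 µM samples, 13.7, 3.73 and 2.31% in the 700 µM samples and 1.01, 0.868 and 5.71% at 3500 µM. In each of the 6 groups it was highest in the replicate with the lowest share of reads in sarcomere genes. In actn3b, the transcript actn3b-203 held 49.2, 42.7 and 93.3% of the gene's reads at 7000 µM, against 11.3, 10.6 and 14.6% in controls, although its own level was not called (0.74, adjusted p = 0.108). For mylpfa, the transcript mylpfa-202 had 1040.0 CPM in replicate 3 at 7000 µM, 34.7% of the gene's reads, and less than 1 CPM in each of the other 17 libraries.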

How the data were processed

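Read counts per transcript and TPM values were used as the authors deposited them, per the file headers; the aligner, counter, genome build, annotation release and strand use were not given in the sources used here. A second deposited sheet was not used. Counts were summed per gene identifier. edgeR 4.0.16 in R 4.3.3 (limma 3.58.1) was run on all 18 libraries with filterByExpr (minimum count 10), TMM scaling, a mean for each group and the two-sided quasi-likelihood test, adjusted by the Benjamini-Hochberg method over 21046 genes at 0.05. The script was tested on simulated data. DESeq2 1.42.0 and the other settings of the closing section were alternatives. TPM served for shares and levels between genes. All 82 member identifiers were in the reference name table, 47 with the same symbol.

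The members, lists and paralog pairs were chosen with earlier results of these data known. Named genes were, per role, the 3 highest in controls; per comparison, the 6 largest rises and falls among calls with at least 5 CPM and no overlap; all calls where 5 or fewer; the paralogs; and the excluded cardiac genes. Other genes were named after their values were seen.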

Additional observations from a re-analysis of the deposited data

How the results depend on the processing

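At 7000 µM against controls, 39 members were called, and 31 to 40 under other scaling, no filter, DESeq2, transcripts, 2 groups only or the replicate block (36), and 28 to 45 when a sample was left out. Replicate numbers did not pair samples (median correlation of same-numbered deviations -0.01, over 0.1 in 13 of 45 pairs), so the block is a sensitivity value. Among named calls it ended those of tnni1d (7000 µM), actn1 (700 µM), myh9b and tnni4b.1 (3500 µM), and mylpfa, myhz2, myhz1.1, myhz1.2, actn3b and mybpc2b (7000 against 3500 µM). At 70 µM (0 called) DESeq2 gave 2 and leaving out a sample 0 to 1. At 700 µM (3 called) DESeq2 gave 5, transcripts 0, a fit of the 2 groups only 25, and leaving out a sample 0 to 9, the highest being without replicate 3 at 7000 µM. At 3500 µM (3 called) the replicate block and transcripts gave 1 each, and leaving out a sample 0 to 3. For 7000 against 3500 µM (25 called) transcripts gave 6, the 2 groups only 1, and leaving out a sample 0 to 31, with 0 without replicate 1 and 16 without replicate 3 at 3500 µM and 8 without replicate 3 at 7000 µM. At 7 µM each setting gave 0. These counts of members are not set against the share of all genes called in each setting.

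The member share at 7000 µM, 3.84% of counts, was 2.15% of TPM and 3.34 to 4.80% when a sample was left out. The slow share, 0.0787%, was 0.113% with smyhc1 to smyhc3 and 0.0707 to 0.0925% with a sample left out; the fast share was 2.88 to 4.21%. The ratio of myoz1b over myoz2a reversed to -0.048 with a pseudocount of 5 CPM. Of 736 alternative values of 61 named calls, 596 kept the call, 140 lost it and 0 reversed; the cause was not tested. No scaling moved the median of all genes by over 0.1.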
